A study of Homo sapiens with 8 samples.

Results

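Transcripts of 51 genes that license, build and run the DNA replication fork were examined in MOLM-13 cells. This established human line was grown from an acute myeloid leukemia and carries a rearranged KMT2A gene. The 51 genes were chosen by name and known role out of 38551 genes in the count table, and they cover origin licensing, the replicative helicase, the DNA polymerases, the sliding clamp and its loader, fork protection, chromatin copying and E2F transcription factors. Cells were kept for 72 h with either the diluent DMSO (4 libraries) or 100 nM PR-957 (4 libraries). PR-957 (ONX-0914) blocks the immunoproteasome, a form of the proteasome found mainly in blood cells, through its catalytic subunit PSMB8. MOLM-13 is a single cell line, and no normal blood cells were part of the comparison. The question was whether blockade of the immunoproteasome changes the transcripts of the replication machinery, and whether all parts of that machinery move alike.

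Replication starts from origins that are licensed in G1 phase. The origin recognition complex (ORC) together with CDC6 and CDT1 loads the ring-shaped MCM helicase onto DNA, and geminin, the product of GMNN, binds CDT1 to prevent a further round of loading. In S phase CDC45 and the GINS complex join the ring to form the active helicase, primase and polymerase alpha lay down primers, and polymerases epsilon and delta copy the strands while held by the clamp PCNA. Many of these genes are transcribed under E2F control as cells enter S phase. In bulk RNA, a larger share of cells in S phase and more transcript per cell cannot be told apart.

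Total counts ranged from 16675036 to 23111223 per library. The cell type label was checked against 8 myeloid leukemia markers, all of which had counts in both groups (their sum was 1396 to 1433 CPM, counts scaled to a common effective library size, under DMSO and 2224 to 2560 CPM under PR-957), while the 4 T cell markers summed to at most 0.649 CPM (CD3E and CD3G at 0 in all libraries, and CD3D at 1, 3, 4 and 12 counts in DMSO replicates 1 to 4 and at most 2 in a PR-957 library), the 4 erythroid markers summed to at most 0.647 CPM and the 3 epithelial markers to at most 0.993 CPM. Of the B cell markers, which summed to 14.5 to 19.4 CPM, PAX5 held most of the counts. The myeloid markers did not move alike. LYZ had 2477 to 3111 counts in DMSO and 13191 to 18286 in PR-957 libraries, and MPO had 2827 to 3644 and 8977 to 10268. FLT3 went the other way, with 5487 to 7951 and 2761 to 3719 counts. Mitochondrially encoded genes took 1.94% to 2.75% of counts in DMSO and 4.15% to 5.24% in PR-957 libraries, and ribosomal protein genes took 16.7% to 17.8% and 12.9% to 14.6%. A scaling that leaves out both classes of genes is given below, and any other part of these shifts in the results was not tested. DMSO replicate 4 stood apart from the other DMSO libraries, for the replication genes mostly downward. It was the lowest of the 4 DMSO libraries for 38 of 50 tested members (76%), against 34.7% of all genes tested. It was the highest for 1 member (2%), against 29.5% of all genes tested. Counts of members called are given with and without it. Nothing in the labels says that replicates were separate cultures, so p-values measure only the spread between these libraries.

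Most replication genes were higher after PR-957, by modest amounts. Of the 51 members, 50 passed the filter on low counts. By edgeR's quasi-likelihood test, with Benjamini-Hochberg adjusted p (over all genes tested) below 0.05, 38 of these 50 were higher, 2 lower and 10 not called. Across all 13179 genes tested, 46.6% passed this rule, 23.1% higher and 23.5% lower, against 76% higher and 4% lower among the tested members. The members were chosen with earlier results of these data known, so this comparison is a description. Every adjusted p given for a gene is from this test. The median log2 fold change of the tested members was 0.30, a 1.23-fold difference, and that of all genes tested was 0.0030. At least 1.5-fold increases were seen for 8 members (6.8% of all genes tested) and at least 1.5-fold decreases for 2 (7% of all genes tested). In 34 members every PR-957 library lay above every DMSO library, and in 3 every one lay below, where 20.8% and 21.7% of all genes tested did so. Without DMSO replicate 4, 36 members were higher and 4 lower, with a median log2 fold change of 0.25. With library totals alone in place of TMM scaling, 42 members were higher and 2 lower, and 63.3% rather than 49.6% of all calls were higher. With those totals less mitochondrial and ribosomal protein genes, 40 members were higher and 2 lower (median log2 fold change 0.36), and 59.5% of all calls were higher. Summed over all 51 genes, the members took 0.454, 0.479, 0.470 and 0.422% of counts in DMSO replicates 1 to 4 and 0.580, 0.590, 0.592 and 0.593% in PR-957 replicates 1 to 4.

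**Figure D1:**
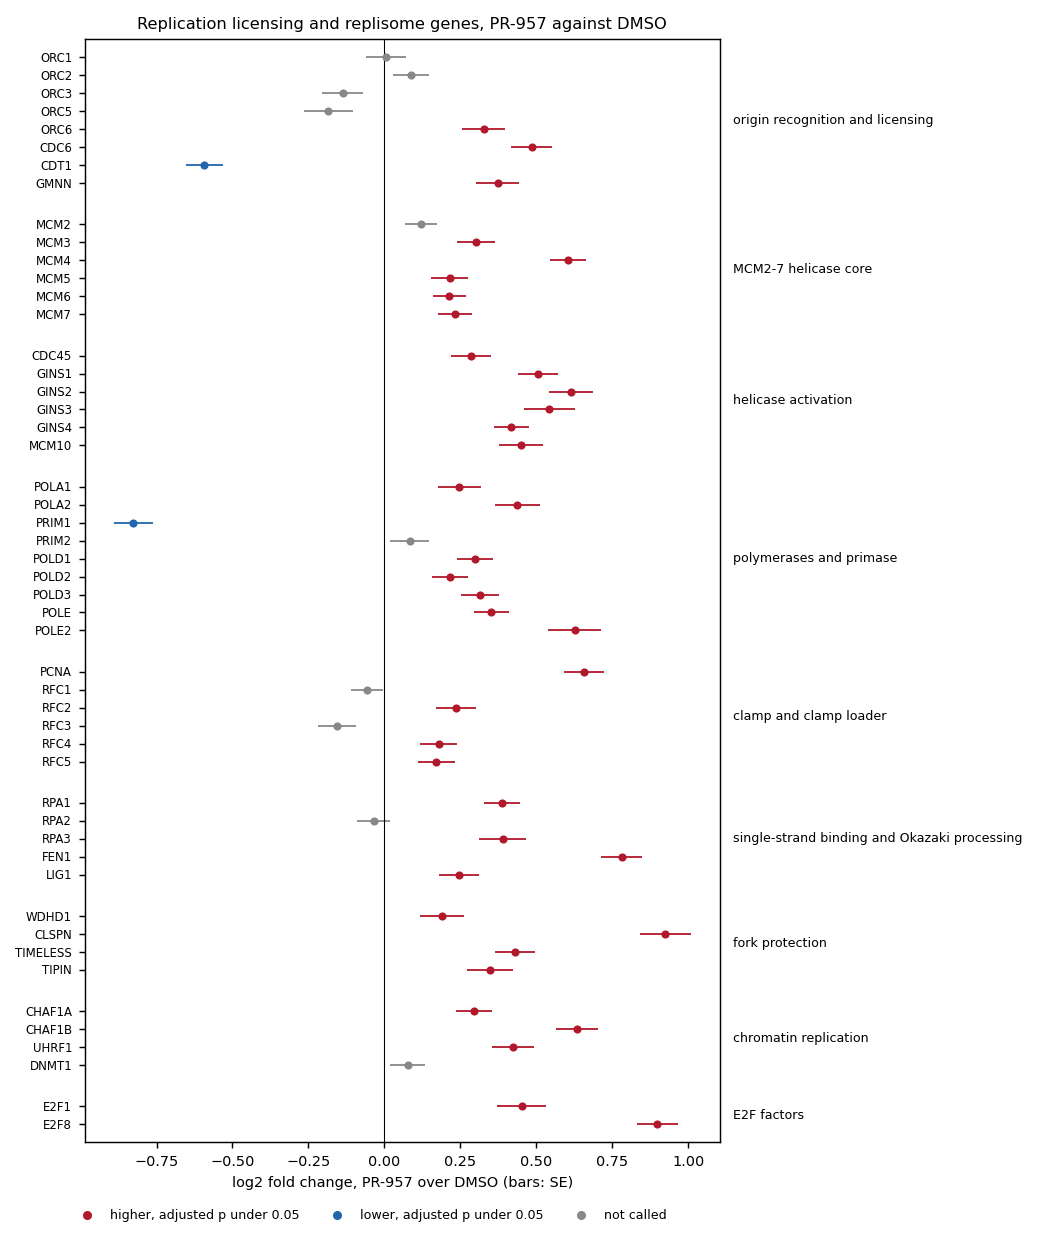
Log2 fold change of PR-957 over DMSO (x axis, bars are SE of the edgeR fit, 4 libraries per group) for each of the 50 tested members, grouped by role. Most points lie to the right of 0, while CDT1 (-0.59) and PRIM1 (-0.83) lie far to the left of the members of their own groups.

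Tested members were well covered by reads. Each had between 226 and 10085 counts in a library, and the SE of its log2 fold change lay between 0.05 and 0.09. Per kilobase of exon in DMSO, members ranged from the 43.4th to the 97.9th percentile of all tested genes, with a median at the 74.7th. The highest per kilobase was PCNA (182 CPM per kb) and the lowest of the tested members was POLA1 (3.95 CPM per kb). E2F2 was the member that could not be tested. It had 4 counts over the DMSO group and 14 over the PR-957 group, and the table places it on an alternate contig as well as on chromosome 1, so its level is uncertain.

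Promoters were searched for the E2F binding motif. RefSeq promoters (GRCh38.p14, from 250 bases before to 50 after the annotated start) were found for 44 of the 51 members. The letters TTTCCCGC, TTTGGCGC, TTTCGCGC or TTTGCCGC were present on either strand in 22 of these 44 (50%), compared with 5.53% of 9912 promoters of tested genes and 3.33% of all 27305 promoters. Matches on opposite strands can overlap each other. In 19 of the 22 a match began within 60 bases of the start. The motif was found in 16 of 32 promoters of members that were higher, in 1 of 2 that were lower, in 4 of 9 that were not called and in the promoter of E2F2, which was not tested. The letters CCAAT were present in 26 of 44 member promoters (59.1%, against 36.8% of promoters of tested genes), and TTTGAA, the core of the element bound by cell cycle repressors in G2 and M phase genes, was present in 0 of 44 (9.86% of promoters of tested genes). A match is a description of letters and not a site of binding.

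The promoter windows below run from 120 bases before the start to 30 bases from it, 5′ to 3′ on the strand of the gene, for the 2 members with the largest increase and the 2 with the largest decrease that had a table entry, and capitals mark the E2F letters. They lie at chr1:35769949-35770098 (minus strand) for CLSPN, chr11:61792791-61792940 (plus strand) for FEN1, chr12:56752294-56752443 (minus strand) for PRIM1 and chr16:88803669-88803818 (plus strand) for CDT1.
CLSPN: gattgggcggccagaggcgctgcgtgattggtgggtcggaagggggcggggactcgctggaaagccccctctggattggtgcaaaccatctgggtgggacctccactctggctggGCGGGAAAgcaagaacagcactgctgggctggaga
FEN1: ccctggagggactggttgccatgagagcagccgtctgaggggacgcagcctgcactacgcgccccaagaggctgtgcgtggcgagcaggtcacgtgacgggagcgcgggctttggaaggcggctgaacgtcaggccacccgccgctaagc
PRIM1: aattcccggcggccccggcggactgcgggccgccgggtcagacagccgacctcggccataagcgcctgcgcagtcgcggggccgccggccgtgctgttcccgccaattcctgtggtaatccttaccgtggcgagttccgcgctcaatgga
CDT1: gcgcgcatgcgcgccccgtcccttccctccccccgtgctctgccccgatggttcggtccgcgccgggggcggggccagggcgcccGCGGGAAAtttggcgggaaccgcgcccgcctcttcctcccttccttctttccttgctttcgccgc
One gene of each direction, CLSPN and CDT1, carries the letters close to its start, and the windows of FEN1 and PRIM1 hold none, which says only that these exact letters are not there. All 4 windows matched a GENCODE transcript of their gene just after the start.

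Origin recognition and licensing genes included called changes in both directions. Of 8 members, 3 were higher (37.5%) and 1 lower (12.5%), beside 23.1% and 23.5% of all genes tested. Shares of so few genes are a description only. The median log2 fold change was 0.05, the lowest of the 9 groups. CDT1 (chromosome 16, 88803789 to 88809258), the loading factor that geminin restrains, had 212, 206, 219 and 192 CPM in DMSO replicates 1 to 4 and 152, 136, 134.7 and 127 CPM in PR-957 replicates 1 to 4. Every treated library lay below every control library (log2 fold change -0.59, SE 0.06, adjusted p = 2.5e-07). In contrast, CDC6 (chromosome 17, 40287878 to 40304657), the ATPase that works beside CDT1, had 48.9, 52.5, 54.8 and 43.4 CPM under DMSO and 68.1, 69.0, 72.0 and 69.6 CPM under PR-957, with no overlap (log2 fold change 0.48, SE 0.07, adjusted p = 9.22e-06). GMNN, the inhibitor of CDT1, rose as well, from 67.9, 66.3, 62.1 and 54.4 CPM to 85.7, 84.7, 79.0 and 74.6 CPM (log2 fold change 0.37, SE 0.07, adjusted p = 0.000228).

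The ratio of CDT1 to GMNN was also taken within each library, where library scaling cancels. CDT1 had 3.12, 3.11, 3.53 and 3.53 counts per count of GMNN in DMSO replicates 1 to 4, and 1.77, 1.61, 1.71 and 1.70 in PR-957 replicates 1 to 4. The groups did not overlap, and the mean log2 ratio went from 1.73 ± 0.10 to 0.76 ± 0.0584 (SD, n = 4 each), a difference of -0.97 (exact permutation p = 0.0286, two-sided, the smallest this design allows, adjusted p = 0.0457 over 8 ratios). It was the largest difference among the 8 ratios examined. The adjusted call of this and the other 4 ratios that passed depended on which libraries were used. With 3 libraries against 4 the smallest p of the exact test is still 0.0286. The adjustment runs over all 8 ratios, so each call also rests on the p of the other ratios. With any single library left out, the CDT1/GMNN difference stayed between -0.998 and -0.937. CDT1/GMNN, MCM10/MCM2, POLE/POLE2 and E2F1/E2F8 kept an adjusted p under 0.05 without DMSO replicate 1 (0.0381) and with no other library left out, and RFC1/RFC4 kept it with none.

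Of the 5 ORC subunits among the members, 1 was called, where 46.6% of all genes tested were. ORC6, the smallest subunit, was higher (log2 fold change 0.33, adjusted p = 0.000944). The others, ORC1, ORC2, ORC3 and ORC5, had log2 fold changes of 0.01, 0.09, -0.14 and -0.18, in that order, and did not pass, with adjusted p of 0.953, 0.242, 0.106 and 0.0647. ORC5 passed the threshold downward without DMSO replicate 4 or without PR-957 replicate 1, with adjusted p over all alternatives from 0.0341 to 0.283. The ratio of ORC1 to ORC2 counts, 0.633 under DMSO and 0.598 under PR-957 (geometric means), did not pass with all libraries (exact permutation p = 0.257, adjusted p = 0.294). It passed without DMSO replicate 1, which had the lowest ratio of the DMSO libraries at 0.558 (exact permutation, adjusted p = 0.0381).

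The MCM genes, whose products form the helicase ring, were mostly higher, led by MCM4. Of the 6 genes, 5 were higher (83.3%, beside 23.1% of all genes tested) and MCM2 was not called (median log2 fold change 0.22). MCM4 had 316, 323, 327 and 274 CPM in DMSO replicates 1 to 4 and 476, 487, 460.5 and 459.6 CPM in PR-957 replicates 1 to 4 (log2 fold change 0.60, SE 0.06, adjusted p = 1.34e-07). MCM3 had 287, 301, 322 and 257 CPM and 347, 353, 358 and 379 CPM (log2 fold change 0.30, SE 0.06, adjusted p = 0.000626). In both genes the groups did not overlap, and DMSO replicate 4 was the lowest library. MCM5, MCM6 and MCM7 had log2 fold changes of 0.22, 0.21 and 0.23. MCM2 (log2 fold change 0.12, SE 0.05, adjusted p = 0.0718) was called higher under 6 of the 20 alternatives. Among the 6 were the replicate number as a block, the fit without DMSO replicate 3 and replicates 1 and 2 only (log2 fold change 0.18). In replicates 3 and 4 only MCM2 had a log2 fold change of 0.05.

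The 6 products assemble in equal numbers, but their transcripts differed in level when scaled by exon length. That length covers all annotated exons of a gene (4104 bases for MCM5), not the transcript in use, so levels of different genes compare only roughly. By this scaling the order in every DMSO library was MCM7, MCM3, MCM4, MCM6, MCM2 and MCM5 from high to low. MCM7 had 97.6, 99.4, 102 and 87.5 CPM per kb in DMSO replicates 1 to 4 and MCM5 had 32.1, 31.3, 34.4 and 28.2 CPM per kb. The ranges of neighbours over the DMSO libraries overlapped for MCM7 with MCM3, MCM3 with MCM4 and MCM6 with MCM2, and did not for MCM4 with MCM6 or MCM2 with MCM5. In PR-957 libraries MCM4 lay above MCM3, at 114, 117, 110.2 and 110.0 against 100.2, 102, 103 and 109 CPM per kb. The highest gene exceeded the lowest 2.96 to 3.18-fold in DMSO and 3.02 to 3.19-fold in PR-957 libraries.

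**Figure D2:**
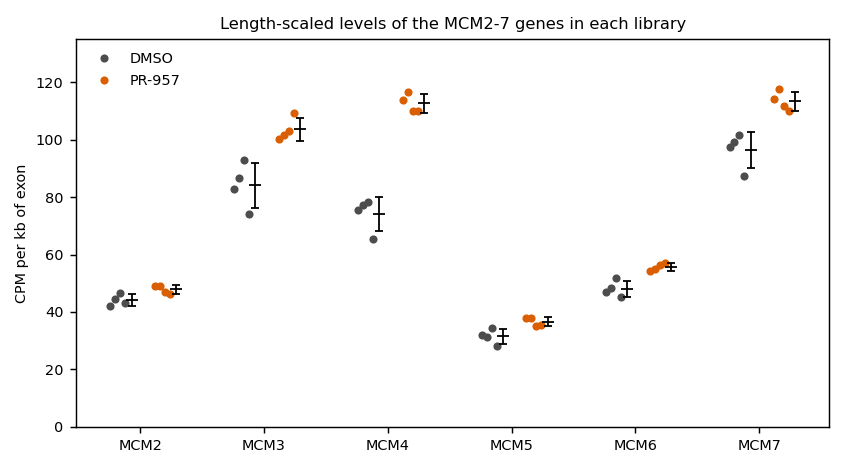
CPM per kilobase of exon (y axis) of the 6 MCM ring genes in each library, with DMSO in grey, PR-957 in orange and bars showing mean ± SD of 4 libraries. MCM4 moved from below MCM3 in all 4 DMSO libraries to above it in all 4 PR-957 libraries.

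The genes that activate the loaded helicase moved in 1 direction. All 6 members of this group, CDC45, GINS1, GINS2, GINS3, GINS4 and MCM10, were higher, where 23.1% of all genes tested were. In each, the PR-957 libraries lay above the DMSO libraries with no overlap, where 20.8% of all genes tested did so. The median log2 fold change was 0.48. GINS2, a subunit of the GINS complex, had 26.3, 28.1, 31.3 and 25.6 CPM in DMSO replicates 1 to 4 and 44.2, 43.2, 41.9 and 40.7 CPM in PR-957 replicates 1 to 4 (log2 fold change 0.61, SE 0.07, adjusted p = 1.25e-06). GINS3, its partner, had 23.2, 20.7, 20.6 and 17.6 CPM and 31.1, 31.0, 27.8 and 29.5 CPM (log2 fold change 0.54, SE 0.08, adjusted p = 3.35e-05). The remaining members of the group had log2 fold changes from 0.28 for CDC45 to 0.50 for GINS1.

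MCM10, which helps the loaded ring to start unwinding, rose relative to the ring subunit MCM2. It had 0.282, 0.279, 0.242 and 0.232 counts per count of MCM2 in DMSO and 0.308, 0.345, 0.312 and 0.333 in PR-957 libraries, with no overlap (difference of log2 ratios 0.33, exact permutation p = 0.0286, adjusted p = 0.0457).

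The median log2 fold change of the polymerase and primase genes was 0.30. Of these 9 genes, 7 were higher and 1 was lower (77.8% and 11.1%, beside 23.1% and 23.5% of all genes tested). The exception was PRIM1 (chromosome 12, 56731580 to 56752323), the catalytic subunit of primase, which makes the RNA primers of every new strand. PRIM1 had 92.8, 96.7, 95.03 and 85.4 CPM in DMSO replicates 1 to 4 and 51.5, 57.8, 48.7 and 50.3 CPM in PR-957 replicates 1 to 4. Every PR-957 library lay below every DMSO library (log2 fold change -0.83, SE 0.06, adjusted p = 4.48e-09), and this was the largest decrease of the 50 tested members. The other subunits of the primase and polymerase alpha complex were not lower by this test. PRIM2, the large primase subunit, was not called (log2 fold change 0.08, SE 0.07, adjusted p = 0.31), while POLA1 (log2 fold change 0.25, adjusted p = 0.00832) and POLA2 (log2 fold change 0.44, adjusted p = 7.9e-05) were higher. PRIM1 had 2.31, 2.27, 2.30 and 2.21 counts per count of PRIM2 in DMSO and 1.11, 1.39, 1.11 and 1.25 in PR-957 libraries, a ratio that was chosen after the values of PRIM1 were seen and is given without a test. No other gene of the table shares exon bases with PRIM1 or CDT1.

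The largest increase in the group was that of POLE2, the accessory subunit of the leading strand polymerase epsilon. POLE2 had 14.2, 16.4, 16.4 and 13.5 CPM in DMSO replicates 1 to 4 and 22.6, 24.95, 22.8 and 22.7 CPM in PR-957 replicates 1 to 4 (log2 fold change 0.63, SE 0.09, adjusted p = 8.53e-06). Its catalytic partner POLE was also higher (log2 fold change 0.35, adjusted p = 6.08e-05), and the ratio of POLE to POLE2 counts went from 8.32, 8.08, 7.16 and 8.19 to 6.75, 5.89, 6.79 and 6.86, with no overlap (difference of log2 ratios -0.27, exact permutation p = 0.0286, adjusted p = 0.0457). The polymerase delta genes POLD1, POLD2 and POLD3 had log2 fold changes of 0.30, 0.21 and 0.32. The ratio of POLD1 to POLD3 counts was 2.57 in DMSO and 2.54 in PR-957 libraries (geometric means, exact permutation p = 0.8286, adjusted p = 0.8286), and that of POLA1 to POLA2 was 1.17 and 1.03 (exact permutation p = 0.114, adjusted p = 0.152). The POLA1/POLA2 ratio passed without DMSO replicate 1, the lowest of the DMSO libraries at 0.979 (exact permutation, adjusted p = 0.0381).

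**Figure D3:**
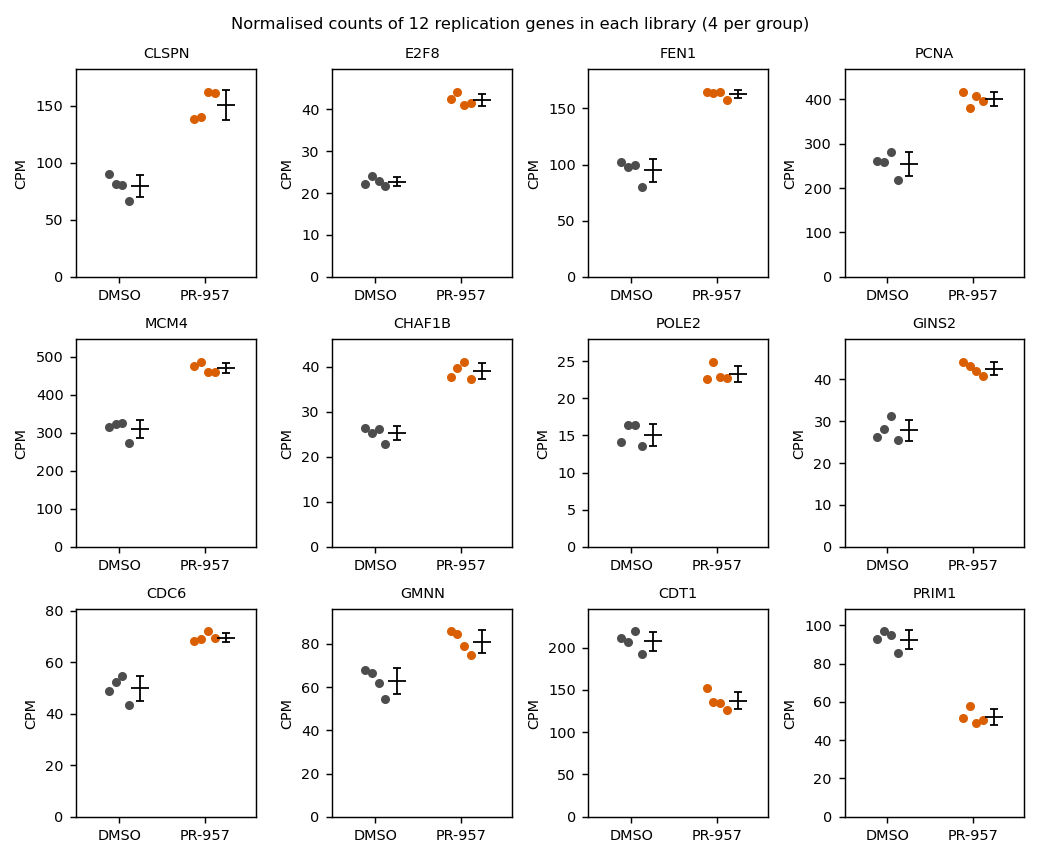
Normalised counts (CPM, y axis from 0) of 12 members in each library, with DMSO in grey, PR-957 in orange and bars showing mean ± SD of 4 libraries. The groups do not overlap in any of the 12 genes, and CDT1 and PRIM1 are the ones that are lower under PR-957.

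In the group of the sliding clamp and its loader, 4 of 6 genes were higher (66.7%, beside 23.1% of all genes tested). The median log2 fold change was 0.17. PCNA (chromosome 20, 5114953 to 5126622), the ring that tethers polymerases to DNA, had 260.0, 258, 281 and 218 CPM in DMSO replicates 1 to 4 and 417, 381, 407 and 397 CPM in PR-957 replicates 1 to 4 (log2 fold change 0.66, SE 0.07, adjusted p = 1.82e-07). The antisense gene PCNA-AS1 shares 26.7% of the exon bases of PCNA and had 14 counts over all 8 libraries. Of the 5 loader genes, RFC2 had the largest change, from 61.5, 56.4, 70.0 and 60.2 CPM to 71.4, 69.9, 74.6 and 75.9 CPM, and the highest DMSO library lay above the lowest PR-957 library (log2 fold change 0.24, SE 0.07, adjusted p = 0.00584). RFC4 and RFC5 were called higher (log2 fold change 0.18, adjusted p = 0.0231 for RFC4 and log2 fold change 0.17, adjusted p = 0.0262 for RFC5). Both lost the call in some alternatives, 4 of 20 for RFC4 (3 of them with DMSO replicate 1, DMSO replicate 4 or else PR-957 replicate 1 left out) and 6 of 20 for RFC5 (4 of them with PR-957 replicate 1, PR-957 replicate 4, DMSO replicate 1 or else DMSO replicate 3 left out). Neither passed in replicates 3 and 4 only (adjusted p = 0.266 and 0.0959).

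RFC1, the large subunit, and RFC3 were not called (log2 fold change -0.06, adjusted p = 0.382 for RFC1 and log2 fold change -0.15, adjusted p = 0.0501 for RFC3). RFC3 lay just outside the threshold and passed it downward in 7 of 20 alternatives, among them without DMSO replicate 4 or PR-957 replicate 2, in a range of adjusted p from 0.00335 to 0.317. Within libraries, RFC1 had 1.53, 1.42, 1.41 and 1.62 counts per count of RFC4 in DMSO and 1.16, 1.24, 1.29 and 1.41 in PR-957 libraries, a small gap with no overlap (difference of log2 ratios -0.24, exact permutation p = 0.0286, adjusted p = 0.0457). Its adjusted p was 0.0571 to 0.0914 with any single library left out. The count of loader and clamp genes called higher was 4 of 6 with all libraries. It was 1 in replicates 3 and 4 only, and 2 without DMSO replicate 1 or without PR-957 replicate 1.

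Of the genes for single-strand binding and Okazaki fragment processing, 4 of 5 were higher (80%, beside 23.1% of all genes tested). The median log2 fold change was 0.39. FEN1 (chromosome 11, 61792911 to 61797238), the nuclease that trims flaps from lagging strand fragments, had 102, 97.7, 99.3 and 80.0 CPM in DMSO replicates 1 to 4 and 165, 163, 165 and 158 CPM in PR-957 replicates 1 to 4 (log2 fold change 0.78, SE 0.07, adjusted p = 1.73e-08). LIG1, the ligase that seals the trimmed fragments, was higher (log2 fold change 0.25, adjusted p = 0.00461). RPA, a trimer, coats single-stranded DNA. RPA3, its small subunit, had 37.6, 33.2, 41.1 and 34.0 CPM and 51.9, 45.3, 49.8 and 43.9 CPM (log2 fold change 0.39, SE 0.08, adjusted p = 0.00035). RPA1 was higher (log2 fold change 0.39, adjusted p = 2.6e-05), whereas RPA2 was not called (log2 fold change -0.04, SE 0.05, adjusted p = 0.608) and its sign changed with library totals alone, with those totals less mitochondrial and ribosomal protein genes, and in replicates 3 and 4 only.

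All 4 fork protection genes were higher, where 23.1% of all genes tested were. CLSPN (chromosome 1, 35720213 to 35769985), whose product claspin relays the checkpoint signal at stalled forks, had 90.3, 81.1, 80.4 and 66.4 CPM in DMSO replicates 1 to 4 and 138, 140.4, 162 and 161 CPM in PR-957 replicates 1 to 4 (log2 fold change 0.92, SE 0.08, adjusted p = 4.59e-07). This was the largest increase of the 50 tested members with all libraries. In replicates 1 and 2 only the CLSPN log2 fold change was 0.70, below E2F8 (0.91) and FEN1 (0.72), and in replicates 3 and 4 only it was 1.14. TIMELESS, which couples helicase and polymerase, had 138, 158, 147 and 123 CPM and 193, 201, 184 and 184 CPM (log2 fold change 0.43, SE 0.07, adjusted p = 3.28e-05). Its partner TIPIN was higher (log2 fold change 0.35, adjusted p = 0.000908). WDHD1, the bridge between helicase and polymerase alpha, was close to the threshold (log2 fold change 0.19, adjusted p = 0.0375) and lost the call in 8 of 20 alternatives, with adjusted p up to 0.147. Leaving out DMSO replicate 1, DMSO replicate 4, PR-957 replicate 2, PR-957 replicate 3 or PR-957 replicate 4 each ended the call.

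Chromatin and DNA methylation are copied behind the fork. In this group 3 of 4 genes were higher (75%, beside 23.1% of all genes tested), with a median log2 fold change of 0.36. CHAF1B, a subunit of the histone deposition complex CAF-1, had 26.4, 25.3, 26.1 and 22.9 CPM in DMSO replicates 1 to 4 and 37.7, 39.7, 41.1 and 37.3 CPM in PR-957 replicates 1 to 4 (log2 fold change 0.63, SE 0.07, adjusted p = 5.82e-07). CHAF1A, its large partner, was also higher (log2 fold change 0.29, adjusted p = 0.000396). UHRF1, which recognises hemimethylated DNA and recruits the maintenance methyltransferase, had 149, 152, 132 and 117 CPM and 187, 186, 180.3 and 182 CPM, with no overlap (log2 fold change 0.42, SE 0.07, adjusted p = 6.54e-05). The methyltransferase DNMT1 itself had overlapping groups and was not called (log2 fold change 0.08, SE 0.06, adjusted p = 0.305).

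Both E2F genes that could be tested were higher, where 23.1% of all genes tested were. E2F8 (chromosome 11, 19224063 to 19241655), a repressor of the E2F family that is itself induced in S phase, had 22.1, 24.1, 22.9 and 21.8 CPM in DMSO replicates 1 to 4 and 42.6, 44.3, 41.0 and 41.6 CPM in PR-957 replicates 1 to 4 (log2 fold change 0.90, SE 0.07, adjusted p = 2.61e-09). E2F1, an activator of the family, had 33.5, 34.3, 29.5 and 25.9 CPM and 42.9, 43.0, 40.5 and 41.7 CPM (log2 fold change 0.45, SE 0.08, adjusted p = 0.000126). The repressor rose more than the activator. E2F1 had 1.51, 1.43, 1.29 and 1.19 counts per count of E2F8 in DMSO and 1.01, 0.971, 0.990 and 1.00 in PR-957 libraries, with no overlap (difference of log2 ratios -0.44, exact permutation p = 0.0286, adjusted p = 0.0457).

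**Figure D4:**
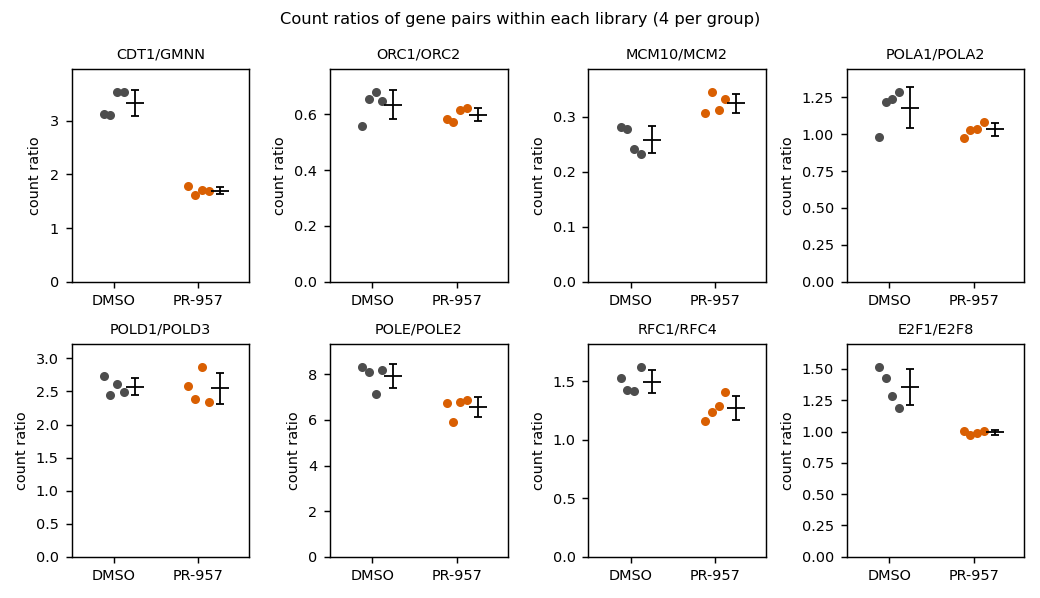
Count ratio of each of 8 gene pairs within each library (y axis from 0), with DMSO in grey, PR-957 in orange and bars showing mean ± SD of 4 libraries. CDT1/GMNN shows the widest separation, with 3.11 to 3.53 in DMSO and 1.61 to 1.77 in PR-957 libraries, while ORC1/ORC2, POLA1/POLA2 and POLD1/POLD3 overlap.

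Another 64 genes that act with the replication machinery were examined for comparison. Of 63 tested, 28 were higher and 6 lower, which is 44.4% and 9.52%, beside 23.1% and 23.5% of all genes tested, and their median log2 fold change was 0.16. Origin firing factors (6 of 8 higher) and nucleotide supply (6 of 8 higher) had the most increases. RECQL4, a helicase-like factor needed for firing, was higher (log2 fold change 0.61, adjusted p = 3.57e-07), as was TYMS, which makes thymidylate (log2 fold change 0.49, adjusted p = 9.44e-07). TYMS shares 53.8% of its exon bases with ENOSF1 on the opposite strand. Histone supply genes were higher in 4 of 6, but the chaperone ASF1A fell (log2 fold change -0.43, adjusted p = 1.46e-06) while its relative ASF1B rose (log2 fold change 0.31).

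Of the remaining subunits of ORC, MCM and polymerase complexes, 3 of 8 were higher (37.5%, beside 23.1% of all genes tested). POLE4, a small subunit of polymerase epsilon, had the largest change (log2 fold change 0.59, adjusted p = 4.19e-06). Among topoisomerase, flap and RNA removal genes 4 of 6 were higher, and DNA2, a flap nuclease, led them (log2 fold change 0.32, adjusted p = 0.00284). For other clamp loaders 1 of 3 tested was higher, CHTF18 (log2 fold change 0.47, adjusted p = 2.89e-05), and CHTF8 was at 0 counts in all libraries in a model that shares every exon base with DERPC on the same strand. Genes that turn over licensing factors gave 2 higher and 1 lower of 6 (33.3% and 16.7%, beside 23.1% and 23.5% of all genes tested). SKP2, a ubiquitin ligase subunit that targets CDT1, was higher (log2 fold change 0.39, adjusted p = 3.92e-05). CUL4B, a scaffold of the ligase family that also degrades CDT1, was lower (log2 fold change -0.37, adjusted p = 8e-05), and its paralog CUL4A and the DDB1 and DTL subunits of the same ligases were not called.

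Checkpoint genes gave 1 higher and 1 lower of 8 (12.5% each, beside 23.1% and 23.5% of all genes tested). The lower gene was RAD17, which loads the checkpoint clamp (log2 fold change -0.57, adjusted p = 0.00684). RAD17 had 77 to 137 counts in a library and, like E2F2, is placed on an alternate contig as well, so its value is uncertain. The higher gene, ATRIP, averaged 1.04 and 2.02 CPM and shares 82.9% of its exon bases with a readthrough gene on the same strand, so it is uncertain too, and CHEK1 and ATR were not called (log2 fold change 0.05 and -0.04). In the group of other E2F and RB factors 1 of 10 was higher (10%) and 3 were lower (30%). These shares are not far from those of all genes tested. RB1, the restraint on activator E2Fs, had the largest change of that group (109 ± 7.86 CPM under DMSO and 83.2 ± 7.21 CPM under PR-957, SD, n = 4 each, log2 fold change -0.39, adjusted p = 8.04e-05). E2F3, E2F4, E2F6 and E2F7 were not called, with log2 fold changes between 0.05 and 0.17.

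**Figure D5:**
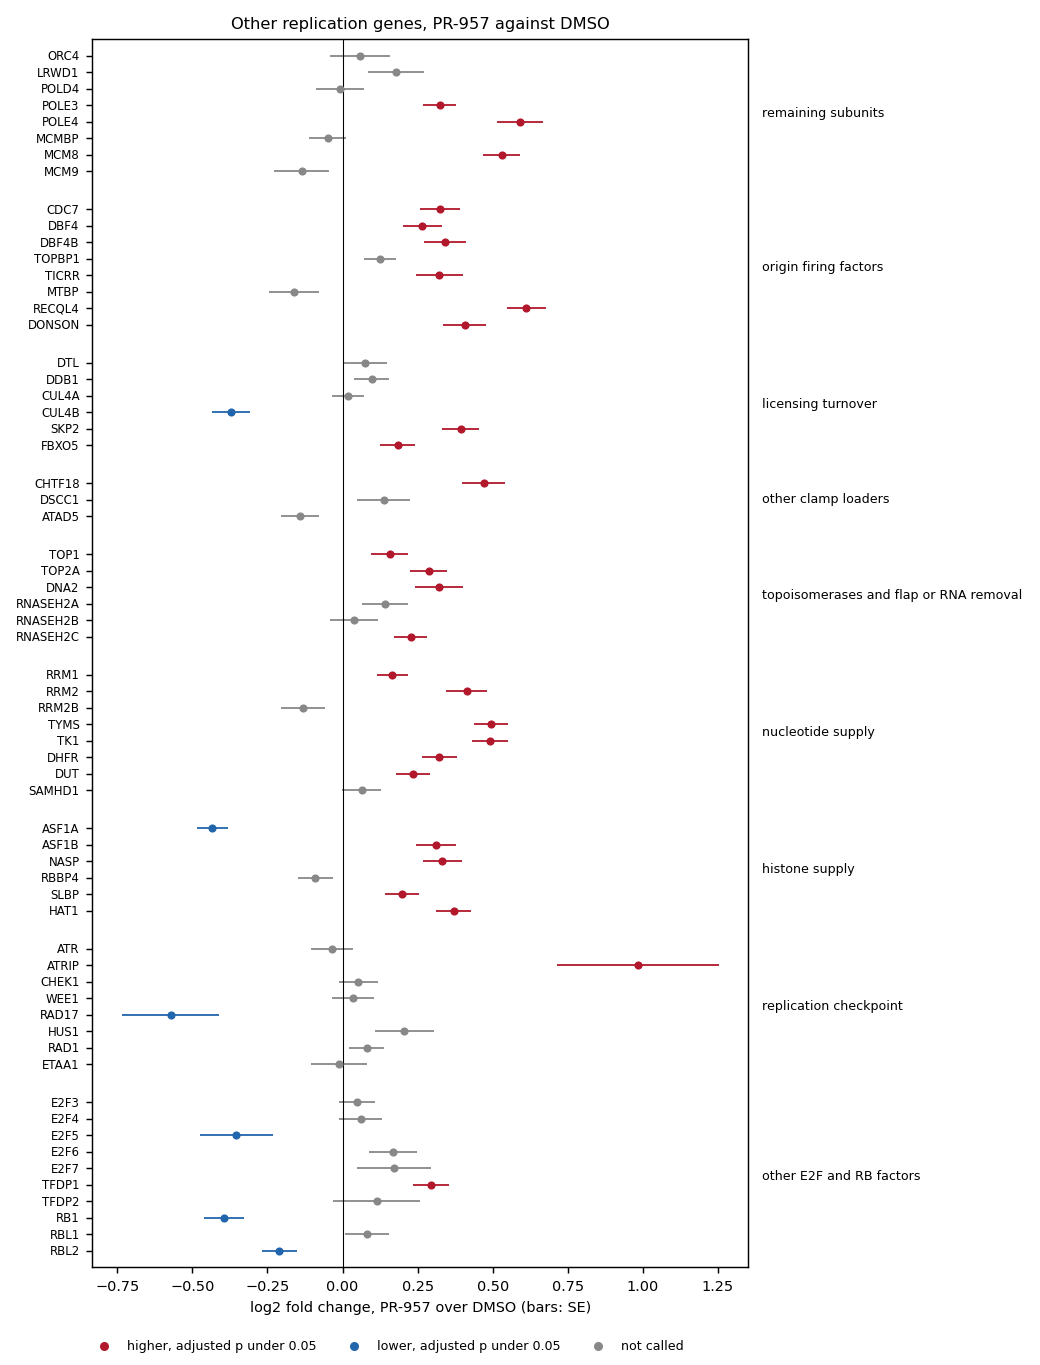
Log2 fold change of PR-957 over DMSO (x axis, bars are SE of the edgeR fit, 4 libraries per group) for 63 tested replication genes outside the 51 members, by subgroup. Origin firing and nucleotide supply genes lie mostly to the right of 0, while CUL4B, ASF1A, RAD17, E2F5, RB1 and RBL2 lie to the left.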

How the data were processed

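Reads were trimmed with Trimmomatic 0.39, aligned to hg38 with STAR 2.7.10a and counted by the authors with featureCounts 2.0.1 on RefSeq gene models, on the reverse strand. The deposited table holds unnormalised counts of read pairs for each gene. The kit name in the labels does not mark strand, but LOC107986126, which shares 31.4% of the exon bases of MCM2 on the opposite strand, had 32 counts over 8 libraries. The counting command named 16 libraries, of which 8 were not used here. Of 38557 gene rows, 6 held no values. The authors' table of fold changes and p-values was not used. Exon length in bases was taken from the count table and covers all annotated exons of a gene, so it can exceed the length of the transcript in use.

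PR-957 was compared with DMSO by edgeR 4.0.16 (glmQLFit, robust, and glmQLFTest, two-sided) in R 4.3.3, with TMM scaling, filterByExpr (13179 genes kept), no covariate and Benjamini-Hochberg adjustment over all genes tested. CPM are TMM-normalised, and SE is the size of the log2 fold change over the root of the F statistic. The members and lists were chosen with earlier results of these data known. In each group, both members with the largest called change were given by library, with every member that fell, and in each subgroup of other genes the largest called change was named. Genes outside this rule were named after their values were seen. Ratios of 8 gene pairs used 0.5 added to each count and exact permutation tests over libraries. Alternatives were DESeq2 1.42.0, limma-voom (limma 3.58.1), 4 other scalings, 2 other filters, blocks, pairs of replicates and each library left out. The fit was tested on simulated data.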

Additional observations from a re-analysis of the deposited data

Results flagged for a closer look

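A library stood far from the other 3 of its group in 4 of 116 groups of values examined (50 tested members and 8 ratios in each treatment), where about 1 in 20 would do so by chance. POLA2 had 26.7 CPM in DMSO replicate 4, below 32.3 to 33.3 CPM in the other DMSO libraries. POLE2 had 24.95 CPM in PR-957 replicate 2, above 22.6 to 22.8 CPM in the others, and in the same library the ratio of POLE to POLE2 counts was 5.89, against 6.75 to 6.86. RFC3 had 88.9 CPM in PR-957 replicate 2, above 79.7 to 80.7 CPM in the others, and without that library its log2 fold change passed the threshold.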

How the results depend on the processing

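Across 20 alternatives, between 32 and 42 members were called higher and between 2 and 4 lower. Of 50 tested members, 35 kept direction and call in all 20, 6 lost their call in at least 1 (MCM5, POLA1, RFC2, RFC4, RFC5 and WDHD1) and 6 gained one (ORC2, ORC5, MCM2, PRIM2, RFC3 and DNMT1). CDT1 and PRIM1 were lower in all 20. Library totals alone put 42 members higher and 2 lower, beside 4066 of all genes higher and 2353 lower in place of 3045 and 3098 with TMM. DESeq2, which was run on all 23827 genes with a count and so differs in filter as well as in test, put 37 members higher and 2 lower, and in replicates 3 and 4 only 32 were higher and 2 lower. In replicates 3 and 4 only, 1 clamp and clamp loader gene was higher, and with each library left out in turn 2 to 4 were. Members called lower ranged from 2 to 4 with a library left out, the 4 being those without DMSO replicate 4, where ORC5 and RFC3 joined CDT1 and PRIM1.

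Signs changed for genes that were not called. The RFC1 log2 fold change was 0.021 with library totals alone. The RPA2 log2 fold change was 0.043 with library totals alone, 0.020 with totals less mitochondrial and ribosomal protein genes and 0.011 in replicates 3 and 4 only. With a library left out the ORC1 log2 fold change ranged from -0.017 to 0.031, and it was below 0 without DMSO replicate 1, DMSO replicate 4 or PR-957 replicate 4. With a library left out, the difference of log2 ratios ranged from -0.998 to -0.94 for CDT1/GMNN, 0.28 to 0.37 for MCM10/MCM2, -0.32 to -0.22 for POLE/POLE2, -0.29 to -0.19 for RFC1/RFC4, -0.50 to -0.38 for E2F1/E2F8, -0.14 to -0.047 for ORC1/ORC2, -0.27 to -0.14 for POLA1/POLA2 and -0.075 to 0.021 for POLD1/POLD3, which was above 0 without DMSO replicate 1, PR-957 replicate 2 or PR-957 replicate 4. In the exact test with 3 libraries against 4, adjusted p of the called ratios rose to at most 0.0914. That of ORC1/ORC2 and POLA1/POLA2, which were not called with all libraries, fell to 0.0381 at the lowest.

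The replicate number as a block gave 39 members higher and 3 lower, adding MCM2 as higher (edgeR adjusted p = 0.0375) and RFC3 as lower (adjusted p = 0.013). Deviations from the group means correlated between same-numbered libraries by 0.141, 0.206, 0.0929 and 0.193 across genes. The numbers were not taken as pairs, since 1 of these 4 was under 0.1 and nothing in the labels ties a number to a shared culture or day. PR-957 replicate 3 correlated best with DMSO replicate 4 (0.104). Replicates 1 and 2 did stand apart from 3 and 4 in both treatments. Correlations between DMSO and PR-957 libraries on the same side of this split ran from 0.0707 to 0.206, and those across it from -0.178 to -0.0407. The main fit has no term for it. With such a term 38 members were higher and 3 lower.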
